A study of Mus musculus with 27 samples.

Results

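The effect of a Sargassum japonica extract on liver organoids of mice with CCl4-induced fibrosis was read from 6 of the 27 messenger RNA libraries of the series. CCl4 is carbon tetrachloride, a solvent that injures hepatocytes and scars the liver when given repeatedly, and Sargassum japonica is a brown seaweed. Organoids derived from such mice made 3 libraries without the extract, and organoids of the same origin exposed to it for 24 h made 3 libraries with it. All 6 were chosen by their labels, and all 27178 genes of the table were considered. The organoids had been grown in Matrigel domes, and exposure followed 4 to 5 days of differentiation medium. The same table holds 3 libraries of organoids from mice that received mineral oil, the vehicle of CCl4, and the spread of each gene was estimated over all 9 libraries. The other 18 libraries come from liver tissue and from organoids of healthy mice given TGF-β1, a cytokine that drives fibrosis. The labels give no dose of the extract or of CCl4, no vehicle for the extract, and no strain, sex, age or treatment schedule of the mice. They do not say whether the numbered libraries are separate mice, separate organoid lines or dishes of 1 line, so the p-values measure only the spread between these libraries.

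Liver organoids are hollow epithelial structures that grow from duct cells of the liver. They can be pushed toward hepatocyte features by a differentiation medium, but most remain duct-like. Scar tissue in the liver is made mainly by stellate cells, which turn into contractile myofibroblasts under TGF-β and secrete fibrillar collagens, while macrophages and injured epithelium supply the signals. An epithelial culture therefore shows the epithelial side of the disease, such as cytokines, basement membrane, protease inhibitors and lipid synthesis.

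The cells were epithelial, with abundant duct keratins and abundant genes of the gut lining. Krt19, a keratin of bile duct cells, stood at 3890, 3870 and 4020 CPM (read counts per scaled library size, the usual normalised read count) without the extract and at 3640, 3970 and 3950 CPM with it. The duct keratin Krt7 ranged from 744 to 1010 CPM and the epithelial adhesion gene Epcam from 1110 to 1350 CPM over the 6 libraries. Other duct markers were low, with Sox9 at 8.15 to 19.8 CPM and Spp1 at 23 to 54.6 CPM. Hnf4a, a transcription factor of the liver epithelium, lay between 873 and 1260 CPM. Alb, the albumin gene of hepatocytes, was read at 61.2 to 155 CPM without and 80 to 190 CPM with the extract. Genes of the gut lining were abundant too: the galectin Lgals4 lay between 3890 and 6120 CPM, the microvillus gene Vil1 between 1630 and 2090 CPM and the trefoil gene Tff3 between 890 and 1750 CPM. Of 22 markers of stellate cells and myofibroblasts, 6 had no read in any of the 6 libraries, and 3 reached a mean of 1 CPM (Ecm1, Tagln and Reln). Their summed level was 32.9 to 83.6 CPM without and 79.3 to 90.7 CPM with the extract, and most of it was Ecm1, with a mean of 69.4 CPM. Of 21 markers of macrophages and Kupffer cells, 12 had no read, among them the defining markers Adgre1, Vsig4 and C1qa, while Mrc1 at a mean of 27.1 CPM led the summed level of 38.4 to 52.5 CPM without and 50.3 to 53 CPM with the extract. The part of such cells in the results below was not tested.

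The 6 libraries held 48.9 to 54.3 M reads, against 44.5 to 64.8 M over all 27, so that 1 read was worth 0.0178 to 0.0208 CPM. The 3 libraries without the extract differed from each other more than the 3 with it. Between pairs without it 765 to 1464 genes were over 2-fold apart, between pairs with it 411 to 472, and between a library without and a library with it 544 to 1417. For 79.1% of the genes tested the SD of log2 CPM was larger without the extract, with a median of 0.187 against 0.0798. Replicate 1 without the extract stood apart from the other 5 libraries. It lay at 59.4 on the first principal component, which held 47.3% of the variance, while the others lay between -16.6 and -4.49, and in it 477 genes were over 2-fold below the lowest of the other 5. Fold changes of single genes that leaving out that library moved by over 1.5 times are also given without it.

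**Figure D1:**
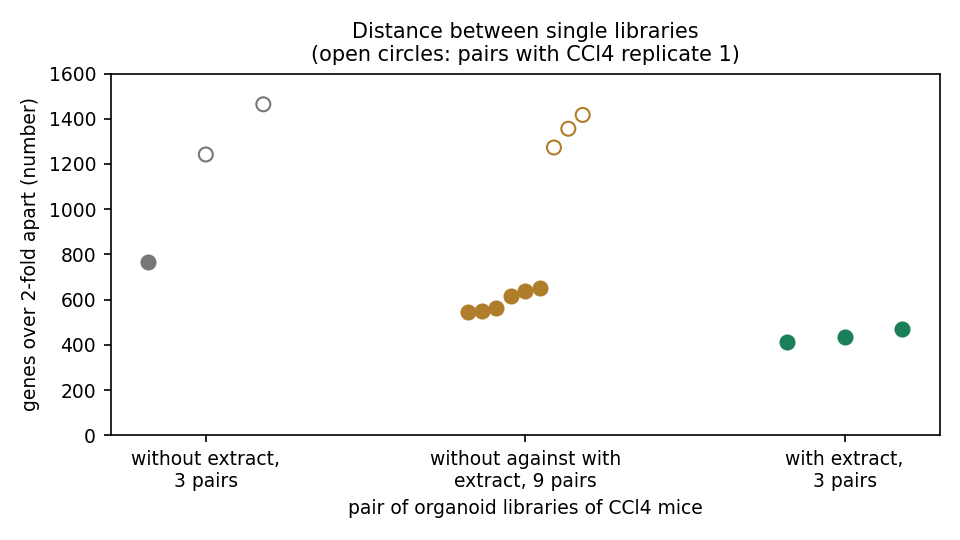
Number of genes over 2-fold apart (vertical axis) for each pair of the 6 organoid libraries, with pairs within the group without extract, between the groups and within the group with extract set side by side. Pairs that include replicate 1 without extract (open circles) lie between 1242 and 1464, above all other pairs, and the 3 pairs with extract lie lowest, at 411 to 472.

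After 24 h of extract no gene differed past the test. Of 14836 genes tested, 0 (0%) reached an adjusted p under 0.05 in limma, and the lowest adjusted p was 0.9998. The most extreme fits among well-read genes were a lower level of the glutathione transferase gene Gstp2 and higher levels of Nhsl2, Tspan2, Gprc5c and the macrophage growth factor gene Csf1, all described below as values. Unadjusted p-values under 0.05 were given to 271 genes, 186 higher and 85 lower (236 and 41 when scaled by library size alone, with the median gene then at 0.04), and to 254 genes by limma's voom on the rebuilt reads. With only the 6 libraries compared, the fit also called 0 genes, with 842 at an unadjusted p under 0.05 and a lowest adjusted p of 0.756. With no effect at all, a share of about 0.05 of the 14836 genes would have an unadjusted p under 0.05. The 271 genes were fewer than that share, and the 842 slightly more.

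The size of difference that could have gone unseen is given by the intervals. For 10656 genes (71.8%) the 95% interval of the log2 fold change lay within -1 and 1, so a doubling or halving lay outside it. For 52.2% of genes it lay within a 1.5-fold difference either way. With the 6 libraries alone these shares were 80.7% and 63.5%. The SEs and intervals printed for the organoid effect come from all 9 libraries, mineral oil included. Replicate 1 of the oil group had 3205 and 3549 genes over 2-fold apart from the other oil libraries. The fitted log2 fold changes ran from -2.61 to 2.16, with a median of -0.00148, and 215 genes were fitted above 1 and 34 below -1. Of all 14836 genes tested, 7359 lay above and 7477 below 0. In 922 genes (6.21%) all 3 libraries with the extract lay above all 3 without it, and in 1123 genes (7.57%) they lay below. These shares are the background for the counts of gene groups below, where "apart" means that the groups of 3 did not overlap.

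The genes that define scar tissue were near the limit of detection. Acta2, the smooth muscle actin of myofibroblasts, had 3, 2 and 6 reads without and 6, 2 and 4 with the extract, too few for a test. Col3a1, a chain of type III collagen, had no read in any of the 6 libraries. Col1a1, a chain of type I collagen (chromosome 11 from 94936224 to 94953042 on mm10), stood at 0.0415, 0.271 and 0.0356 CPM without and at 0.149, 0.289 and 0.118 CPM with the extract, and the groups overlapped (log2 fold change 0.79 ± 0.60 SE, interval -0.59 to 2.17, and 0.48 without replicate 1). Timp1, an inhibitor of matrix proteases, was at 0.29, 0.521 and 0.782 CPM without and 0.613, 1.1 and 0.844 CPM with it (0.70 ± 0.43, and 0.36 without replicate 1). Tgfb1, the ligand gene itself, was at 3.54, 10.6 and 10.7 CPM without and 10.9, 13.7 and 11.3 CPM with the extract (0.69 ± 0.40, interval -0.23 to 1.60). All 3 of its libraries with the extract were higher, but replicates 2 and 3 without it came close to the lowest of them, and without replicate 1 the log2 fold change was 0.16.

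Among genes that averaged 2 CPM or more in either group, the 10 apart on the higher side with the smallest unadjusted p ranged from 0.39 to 1.09 on the log2 scale. Nhsl2, a relative of the Nance-Horan syndrome gene, stood at 2.24, 2.1 and 2.67 CPM without the extract and at 5.94, 4.35 and 4.77 CPM with it (chromosome X from 101849261 to 102092055, log2 fold change 1.09 ± 0.20). Csf1, which makes the growth factor that sustains macrophages, stood at 3.25, 3.12 and 4.14 CPM without and 7.26, 7.15 and 6.44 CPM with it (chromosome 3 from 107741048 to 107760469, 0.99 ± 0.21). In both genes every library with the extract exceeded the highest without it by more than the range of the group without it. The tetraspanin gene Tspan2 was at 5.76, 6.54 and 7.68 CPM against 10.8, 10.4 and 10.6 CPM (0.68 ± 0.14), and Gprc5c, an orphan receptor, at 20.1, 13.8 and 17.2 CPM against 30.2, 29.8 and 24.4 CPM (0.73 ± 0.15). Masp1, a protease of the lectin pathway of complement, was at 2.74, 3.46 and 3.63 CPM against 5.65, 5.74 and 5.14 CPM (0.75 ± 0.17). Irs1, the docking protein of the insulin receptor, ranged from 15.3 to 18.5 CPM without and from 21 to 23.5 CPM with the extract (0.39 ± 0.09). Bmp1, the protease that trims procollagens, ranged from 19.6 to 22.5 CPM without and from 26.9 to 29.6 CPM with it (0.43 ± 0.11). The cilium gene Ahi1, the homeobox gene En1 and the kinase gene Pak3 completed the 10, at 0.61, 0.46 and 0.63 on the log2 scale. Their unadjusted p-values ran from 0.00059 for Nhsl2 to 0.00642 for Pak3, and since they were picked for them they are no test.

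The 10 genes named by the same rule at lower levels ranged from -0.74 to -0.22 on the log2 scale. Gstp2, a glutathione transferase whose reads can be shared with its close copies, stood at 6.22, 6.35 and 5.88 CPM without the extract and at 3.6, 3.74 and 3.63 CPM with it (chromosome 19 from 4040288 to 4042221, -0.74 ± 0.13). Its libraries lay close together within each group, and its unadjusted p of 0.000321 was the smallest of the fit. Ush1g, a scaffold gene of sensory hair cells, ranged from 5.46 to 7.73 CPM without and from 4.18 to 4.44 CPM with it (-0.58 ± 0.16). Sugct, an enzyme of glutarate breakdown, ranged from 9.15 to 10.7 CPM without and from 6.89 to 7.18 CPM with it (-0.47 ± 0.15). Ppme1, which removes the methyl mark of protein phosphatase 2A, ranged from 167 to 214 CPM without and from 146 to 150 CPM with it (-0.37 ± 0.10). The semaphorin gene Sema3b, the proton pump subunit gene Atp6v0d1, the aminopeptidase gene Xpnpep1, the mitochondrial hydrolase gene Macrod1, the iron-sulfur assembly gene Nubp2 and Ncbp2as2 lay between -0.30 and -0.22. Without replicate 1 Sema3b, the lowest of these, lay at -0.197. Ncbp2as2 is named as antisense to Ncbp2, and the sources used here do not say whether the counting used the strand.

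**Figure D2:**
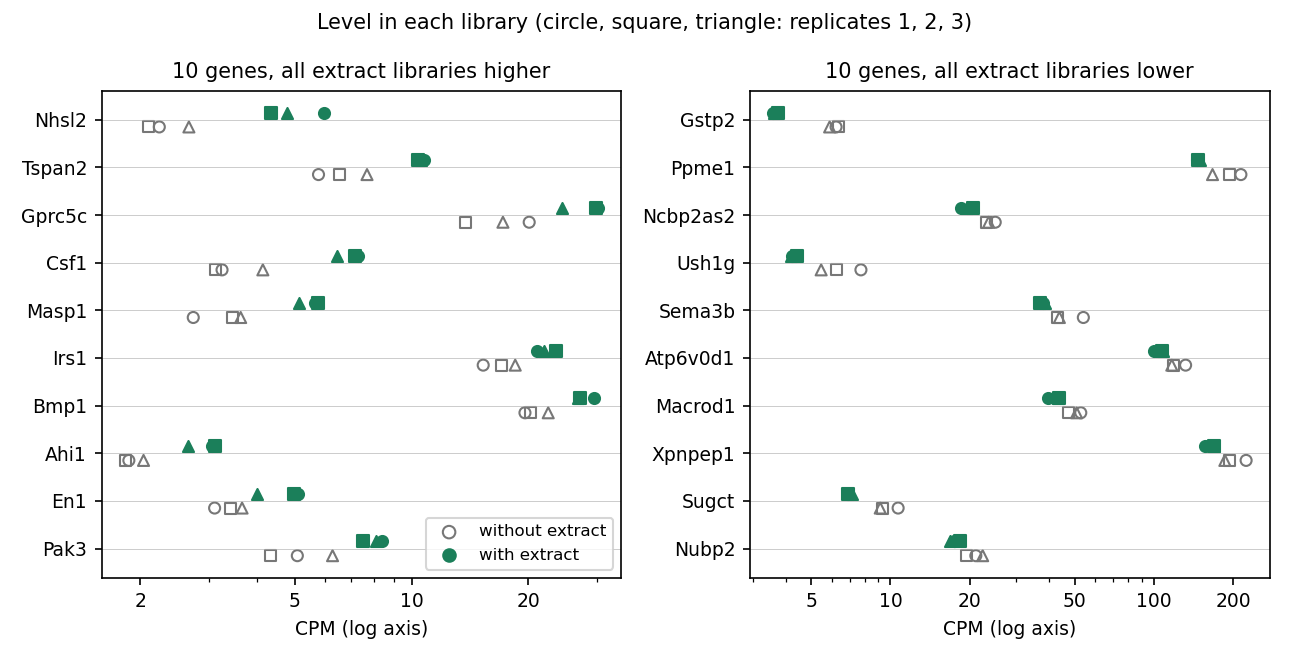
Level of the 10 genes of smallest unadjusted p in each direction, in CPM on a log axis, in the 3 libraries without (open) and the 3 with extract (filled). By the rule that chose them the groups do not overlap. Nhsl2 lies between 2.1 and 2.67 CPM without and between 4.35 and 5.94 CPM with extract.

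By the size of the fold change, among genes that were apart and averaged 2 CPM or more in either group, the 5 named on the higher side ranged from 1.33 to 1.98 on the log2 scale and the 5 on the lower side from -2.61 to -1.06. Tgfb3, a TGF-β ligand, stood at 0.477, 0.312 and 0.711 CPM without the extract and at 2.08, 2.22 and 1.71 CPM with it (chromosome 12 from 86056743 to 86079041, log2 fold change 1.98 ± 0.59). Timp3, a matrix-bound inhibitor of metalloproteinases, stood at 56.6, 34.1 and 84 CPM without and at 145, 170 and 128 CPM with it (chromosome 10 from 86300412 to 86349505, 1.43 ± 0.71). Both were higher in all 3 libraries, and in neither gene was replicate 1 without the extract the lowest. Olfm4, a marker of intestinal stem cells, was at 3.19, 8.83 and 9.03 CPM against 20.7, 12.4 and 15.8 CPM (1.33 ± 0.56), and Pkhd1l1, a relative of the fibrocystin gene, at 1.12, 2.73 and 4.05 CPM against 5.81, 6.82 and 6.57 CPM (1.45 ± 1.14). Without replicate 1 these were 0.83 for Olfm4 and 0.93 for Pkhd1l1. Lower were Fabp6, the ileal bile acid binding protein gene (5.33, 0.542 and 0.178 CPM against 0.0743, 0.126 and 0.118 CPM), and BB123696 (10.1, 0.896 and 0.889 CPM against 0.353, 0.506 and 0.294 CPM). In both, replicate 1 without the extract stood far above the rest, and without it their log2 fold changes of -2.61 and -2.31 became -1.31 and -1.17. The same library led Cyp2d26, a cytochrome P450 gene with close copies (189, 61.8 and 51.6 CPM against 34.3, 36.8 and 33.9 CPM), and Isx, an intestinal homeobox gene (7.94, 2.1 and 2.76 CPM against 1.65, 1.61 and 1.86 CPM), whose log2 fold changes of -1.27 and -1.06 became -0.69 and -0.49 without it. The immediate early gene Fosb was at 121, 53.9 and 109 CPM without and at 32.3, 38.8 and 53.2 CPM with the extract (-1.14 ± 0.53). Fos, its relative in the AP-1 factor and picked after its values were seen, was at 659, 419 and 546 CPM against 333, 358 and 415 CPM (-0.53 ± 0.28). Of 22 immediate early genes tested 8 lay above and 14 below 0, with a median of -0.08, or -0.14 without replicate 1. Among the 22, 2 were apart lower (background 7.57%) and 1 higher (background 6.21%).

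The genes of cholesterol synthesis all lay on the lower side. Cells make cholesterol through the mevalonate pathway, whose genes are switched on together by the factor SREBP2 when sterols run low. All 23 genes of this list were tested, and 0 lay above and 23 below a log2 fold change of 0, with a median of -0.23 against -0.00148 for all genes. In 12 of the 23 the libraries with the extract were all lower, against 7.57% of all genes, and none was apart on the higher side (background 6.21%). No member passed the test. Hmgcs1, the synthase that starts the pathway, stood at 920, 754 and 747 CPM without and at 661, 682 and 700 CPM with the extract (chromosome 13 from 119690351 to 119708260, log2 fold change -0.24 ± 0.11). Msmo1, a sterol demethylation enzyme, stood at 521, 530 and 497 CPM without and at 412, 456 and 456 CPM with it (chromosome 8 from 64718123 to 64733578, -0.23 ± 0.09). In both genes the lowest library without the extract was still above the highest with it. The members ranged from -0.50 for Mvd, the mevalonate diphosphate decarboxylase gene, to -0.01 for Srebf2, which encodes SREBP2 itself and lay at 0.03 when scaled by library size alone. Mvd and Srebf2 were picked after their values were seen. The median over the list, set against the mean of the libraries without the extract, was 0.198, -0.132 and -0.0439 in those 3 libraries and -0.286, -0.22 and -0.198 in the 3 with it. Without replicate 1 all 23 remained below 0, with a median of -0.14, and Hmgcs1 lay at -0.14, Mvd at -0.31 and Srebf2 at -0.07.

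The promoters of 2 of these genes are shown because most of the list shares a sequence feature. The list was drawn up from genes under 1 factor, so a shared promoter feature describes the list and not the effect of the extract. They run from 250 bases before to 50 after the start of the transcript, from RefSeq on GRCm38.p6 (mm10), and capitals mark each CCAAT (the box bound by the factor NF-Y, read on either strand) and each CACCCCAC (the core of a sterol regulatory element, read on either strand).
Hmgcs1, chr13:119690101-119690400, plus strand: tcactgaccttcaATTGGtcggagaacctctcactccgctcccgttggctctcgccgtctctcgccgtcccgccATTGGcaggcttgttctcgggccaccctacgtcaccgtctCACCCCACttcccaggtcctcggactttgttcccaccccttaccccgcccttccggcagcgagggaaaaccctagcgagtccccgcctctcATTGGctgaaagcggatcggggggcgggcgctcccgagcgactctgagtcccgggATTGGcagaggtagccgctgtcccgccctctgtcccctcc
Msmo1, chr8:64733529-64733828, minus strand: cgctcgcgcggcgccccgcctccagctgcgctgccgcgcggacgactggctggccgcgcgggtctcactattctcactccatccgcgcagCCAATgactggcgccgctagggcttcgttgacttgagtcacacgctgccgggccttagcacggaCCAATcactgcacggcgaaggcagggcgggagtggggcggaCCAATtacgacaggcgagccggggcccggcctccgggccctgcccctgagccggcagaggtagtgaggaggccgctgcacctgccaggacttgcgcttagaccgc
A CCAAT box occurred 4 times in the Hmgcs1 window and 3 times in that of Msmo1, and CACCCCAC 1 time and 0 times. Of the 23 genes of the list 15 had such a window, and 14 of those 15 (93.3%) held a CCAAT box, against 41.1% of 27025 genes. CACCCCAC was found in 2 of the 15 (13.3%), against 3.3% of all genes. The background is all genes with a window, not only the genes tested. These are matches of letters, not binding sites measured in the organoids.

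Inflammatory epithelial genes lay mostly on the other side. The list of NF-κB factors, their targets and chemokines had 23 tested genes, of which 9 were apart on the higher side, against 6.21% of all genes, and 0 on the lower side, against 7.57%. The median was 0.42, and no member passed the test. Lcn2, lipocalin 2, an iron-trapping antibacterial protein, stood at 21.8, 102 and 131 CPM without and at 211, 158 and 167 CPM with the extract (1.42 ± 0.74). Cxcl5, a chemokine that attracts neutrophils, stood at 61, 50.3 and 93 CPM without and at 141, 156 and 138 CPM with it (1.14 ± 0.43). Tnfaip2, a TNF-induced gene, stood at 75.6, 106 and 121 CPM without and at 122, 135 and 127 CPM with it (0.37 ± 0.20). For Cxcl5 the gap between the groups was about as wide as the range without the extract, whereas for Lcn2 and Tnfaip2 it was smaller than that range. Without replicate 1 the log2 fold change was 0.61 for Lcn2 and 0.18 for Tnfaip2. Of genes picked after their values were seen, the chemokine gene Cxcl1 was at 7.21, 7.5 and 11.6 CPM against 14.2, 12.4 and 12.6 CPM, and Tnf, the tumour necrosis factor gene, at 1.29, 1.6 and 1.92 CPM against 2.95, 2.6 and 2.77 CPM. The other genes apart were Cxcl2, Cxcl16, Vcam1 and Il1b. The subunit genes of the factor itself overlapped, with Nfkb1 between 78.1 and 88.4 CPM and Rela between 96.9 and 107 CPM over the 6 libraries. Without replicate 1 the median of the list was 0.17, with 15 genes above and 8 below 0. The 27 tested interferon response genes had a median of 0.07, or -0.06 without replicate 1.

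**Figure D3:**
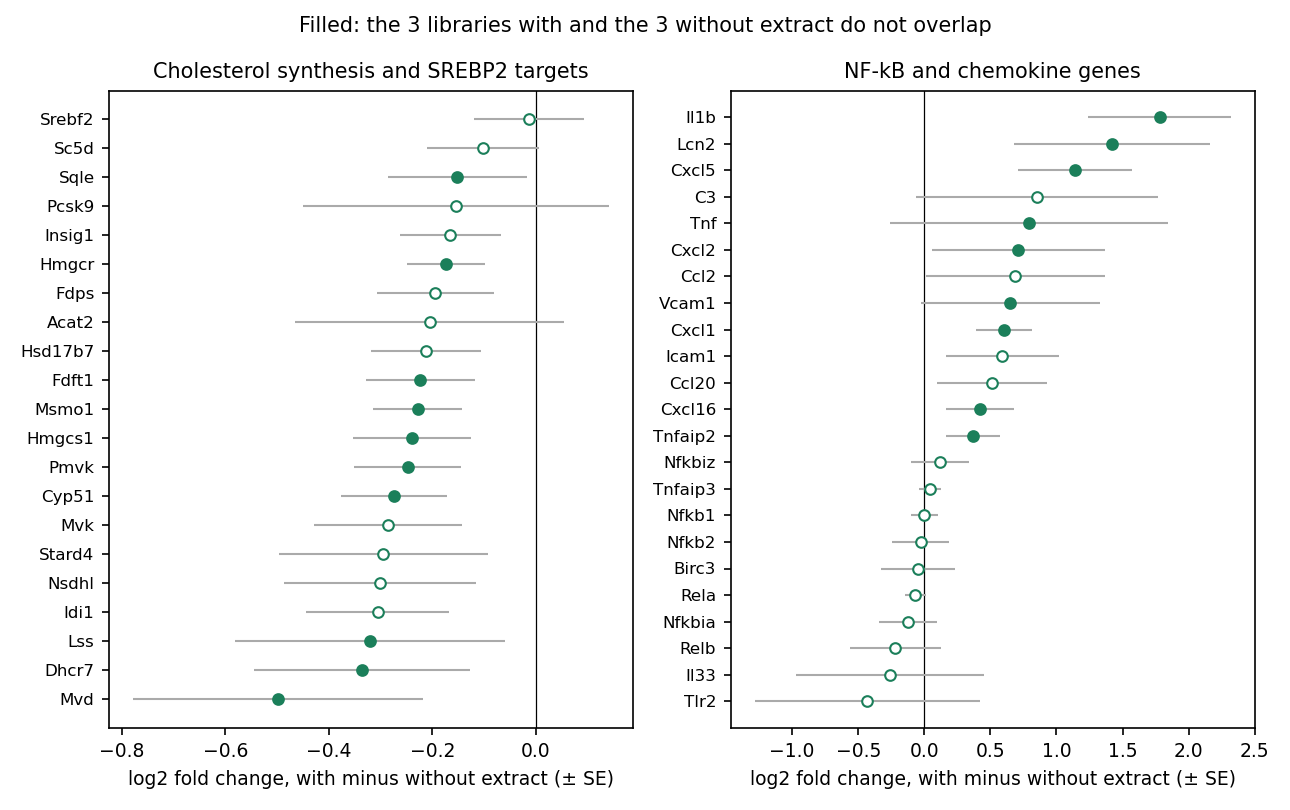
Log2 fold change with its SE, with minus without extract, for members of the cholesterol synthesis list (21 genes drawn) and the NF-κB and chemokine list (23 genes). Filled points mark genes whose groups do not overlap. All cholesterol genes drawn lie left of 0, and of the NF-κB and chemokine genes 15 lie right and 8 left of it.

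Matrix genes were fitted higher more often than lower. Fibrosis replaces the thin basement membrane under epithelium with fibrillar collagen, and proteases and their inhibitors set how fast either is removed. Of 27 genes of collagens and fibrillar matrix 12 had enough reads for a test and 8 had no read. Of the 12 tested 11 lay above 0, with a median of 0.64, 2 were apart higher (background 6.21%) and 0 lower. Fn1, fibronectin, was the most abundant, at 70.5, 175 and 222 CPM without and 235, 236 and 212 CPM with the extract (0.70 ± 1.09, and 0.20 without replicate 1). Thbs1, thrombospondin 1, an activator of latent TGF-β, was at 41.3, 44 and 60.1 CPM against 74.3, 76.7 and 68.7 CPM (0.61 ± 0.52), and Col16a1, a fibril-associated collagen, at 9.47, 8.21 and 11.4 CPM against 15.7, 12.8 and 14 CPM (0.55 ± 0.85). Thbs1 and Col16a1 were apart and Fn1 was not. The SEs include the spread of the mineral oil libraries. With the 6 libraries alone they were 0.375 for Fn1, 0.138 for Thbs1 and 0.142 for Col16a1.

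Of 18 basement membrane genes 17 lay above 0, with a median of 0.24. In this list 5 were apart higher (Col18a1, Lama4, Lamc1, Nid1 and Agrn) and 0 lower, against 6.21% and 7.57% of all genes. Agrn, agrin, a heparan sulfate proteoglycan, was at 437, 500 and 511 CPM without and 569, 558 and 547 CPM with the extract (0.21 ± 0.10, and 0.14 without replicate 1). Lama5, the main laminin chain of adult epithelium, overlapped between 771 and 1160 CPM without and 1080 and 1150 CPM with it, and the laminin chain gene Lamb3 was at -0.04 ± 0.09, and at -0.06 without replicate 1. Of 17 proteases and inhibitors all 17 lay above 0, with a median of 0.47, but without replicate 1 14 lay above and 3 below. In this list 3 were apart higher (Mmp14, Timp3 and Adam17, background 6.21%) and 0 lower. Plat, the tissue plasminogen activator, was at 117, 503 and 335 CPM without and 353, 390 and 381 CPM with the extract. The groups overlapped and replicate 1 without the extract was the lowest library. The sheddase gene Adam10 lay between 207 and 232 CPM throughout. Without replicate 1 the medians were 0.37 for collagens and fibrillar matrix, 0.15 for basement membrane and 0.13 for proteases and inhibitors, with Plat at -0.13. The 26 genes of TGF-β ligands, receptors and SMADs had a median of 0.13, with Tgfb1, Tgfb3, Tgfbr3 and Inhba apart higher and Smad2 lower, and the 25 TGF-β target genes a median of 0.09, with Tgm2 and Bambi apart higher and Tgfbi and Cdkn2b lower. Without replicate 1 the medians of these lists were 0.0301 and 0.00259. Genes named here only as apart were picked after their values were seen.

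**Figure D4:**
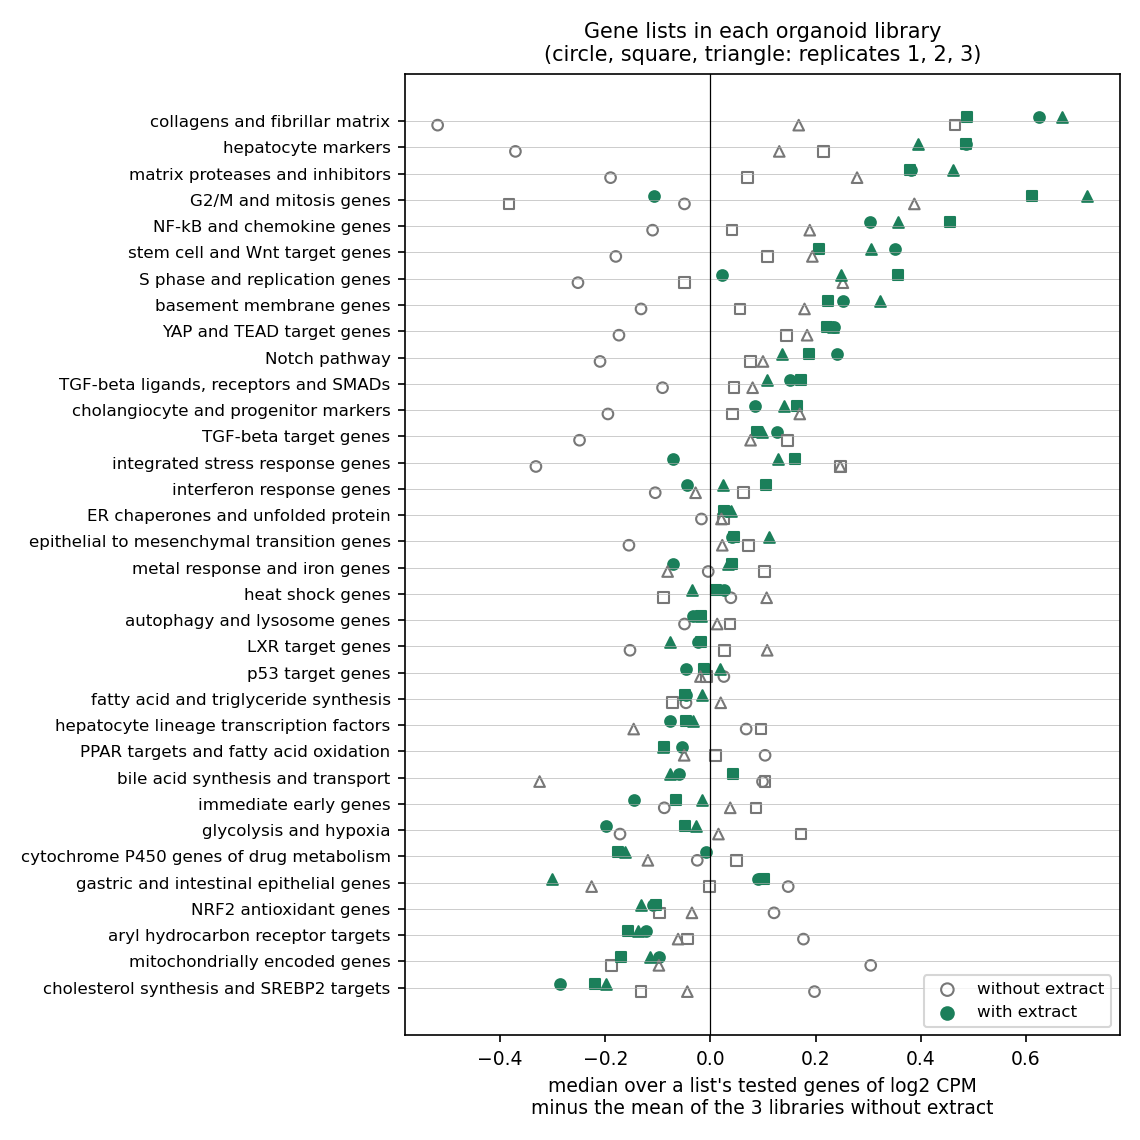
Median of each gene list with at least 10 tested members in each library, as log2 CPM minus the mean of the 3 libraries without extract (horizontal axis), without (open) and with extract (filled). Replicate 1 without extract (open circle) lies at the far end of many lists. The cholesterol list has all 3 filled points below all 3 open ones. So have the lists of NRF2 genes, aryl hydrocarbon receptor targets and PPAR targets. In several others, the NF-κB and chemokine list among them, all 3 filled points lie above.

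Among the pathways that keep duct cells in their state, all 10 tested Notch genes lay above 0, or 8 without replicate 1. Notch receptors and Jagged ligands set the duct fate in the developing liver. The median of the Notch list was 0.20, or 0.13 without replicate 1. In it 4 genes were apart higher (Notch2, Notch3, Jag1 and Lfng, background 6.21%) and 0 lower. Notch2 was at 90.5, 96.2 and 95.1 CPM without and 109, 102 and 104 CPM with the extract (0.16 ± 0.07). Notch1, at 71.9 to 83.5 CPM, and the ligand gene Jag2, at 89.1 to 116 CPM over the 6 libraries, overlapped. Of 12 stem cell and Wnt target genes 5 were apart higher (Axin2, Olfm4, Prox1, Cd44 and Myc) and 0 lower, with a median of 0.26. Without replicate 1 that median was 0.21, with 8 genes above and 4 below 0. Cd44, the hyaluronan receptor, was at 185, 179 and 233 CPM without and 280, 245 and 254 CPM with the extract (0.39 ± 0.22). Lgr5, the Wnt-linked stem cell receptor, overlapped (4.87, 8.31 and 12.1 CPM against 7.35, 8.07 and 7.65 CPM), as did Lgr4 at 183 to 253 CPM and the feedback gene Rnf43 at 50.4 to 69.4 CPM. The duct marker list as a whole, 23 tested genes, had a median of 0.09, or -0.03 without replicate 1, and a summed level of 17000 to 18800 CPM without and 17300 to 18600 CPM with the extract. In it the progenitor factor gene Sox9 was at 8.15, 13.4 and 19.8 CPM against 19, 15.3 and 16.8 CPM (0.39, and 0.06 without replicate 1), and the osteopontin gene Spp1 at 23, 24.2 and 47.1 CPM against 54.6, 50 and 43.5 CPM. The 17 tested hepatocyte markers had a median of 0.52, with Hpx apart higher and none lower. That value was 0.08 without replicate 1, in which the apolipoprotein gene Apoa1 stood at 130 CPM against 1030 and 378 CPM in the other libraries without and 604 to 685 CPM in those with the extract, while Ttr, transthyretin, lay between 150 and 239 CPM throughout.

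Antioxidant and drug-handling genes showed no shift past the test. NRF2 is the factor that switches on glutathione synthesis and detoxifying enzymes when a cell meets oxidants or reactive compounds, and cytochrome P450 enzymes oxidise drugs and plant compounds. Of 29 NRF2 genes 8 were apart lower, against 7.57% of all genes, and 0 higher, with a median of -0.13, or -0.07 without replicate 1, and 21 of them had an interval within -1 and 1. Fth1, ferritin heavy chain, overlapped between 2280 and 4100 CPM, and so did the transferase gene Gsta4 at 1490 to 2290 CPM. Abcc3, an export pump for bile acid and drug conjugates, was at 2650, 2820 and 2560 CPM without and 2480, 2490 and 2530 CPM with the extract (-0.10 ± 0.17). The 10 tested targets of the aryl hydrocarbon receptor had a median of -0.15 with Ugt1a7c apart lower, and the 22 cytochrome P450 genes a median of -0.13 with Cyp3a16 apart higher and Cyp2b10, Cyp2c55, Cyp2d26, Cyp2j6 and Cyp3a25 lower. All 20 genes of endoplasmic reticulum chaperones and 15 of 16 heat shock genes had an interval within -1 and 1, with medians of 0.03 and -0.01. Of 24 glycolysis and hypoxia genes Gpi1, Pfkl, Pkm and Ldha were apart lower, with a median of -0.10, or -0.18 without replicate 1. With that library left out, 0 of these genes lay above and 24 below 0. All 13 mitochondrially encoded genes lay below 0, with a median of -0.15, but without replicate 1 their median was 0.04. The lists of fatty acid synthesis, fatty acid oxidation, LXR targets, bile acids, p53 targets and autophagy had medians between -0.08 and -0.01.

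No gene of the cell cycle lists passed the test in organoids. Mki67, the proliferation marker, was at 11.3, 11.8 and 17.7 CPM without and 13.4, 21.6 and 23.1 CPM with the extract (0.50 ± 0.46). Top2a, the topoisomerase of mitosis, was at 11.9, 9.52 and 15.7 CPM against 12.4, 21.3 and 19.2 CPM, and Kif23, a motor of cell division, at 30.2, 26.1 and 31.4 CPM against 31.7, 33.6 and 33 CPM. Of 24 genes of G2/M and mitosis 23 lay above 0, with a median of 0.44, and 2 were apart higher (Kif11 and Kif23, background 6.21%), and replicate 1 with the extract stood among the libraries without it. In bulk RNA fewer cells of a kind and less RNA per cell cannot be told apart.

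The extract was also given to CCl4 mice whose liver was sequenced, and that effect was compared with the effect in organoids gene by gene. In liver it changed 2871 of 15037 genes (19.1%), 9.33% of them rising and 9.76% falling as shares of all genes tested. The difference between the effects in liver and in organoids passed limma's test for 928 of 13116 genes (7.08%), 316 higher in liver (2.41%) and 612 lower (4.67%). With scaling by library size alone it passed for 1732 genes, 98 higher and 1634 lower in liver, with the median gene at -0.28, so counts of genes lower in liver depend on the scaling. Leaving out an organoid library lowered the count most without replicates 3, 2 or 1 with the extract (425, 465 and 564 genes) and without replicate 1 without it (610). Liver libraries were not left out. Of the 928 genes, 888 were also called in liver. The 1352 genes that fell in liver and were tested in both had a median log2 fold change of -0.72 there and of 0.06 in organoids. The 1219 that rose in liver had medians of 0.57 there and -0.05 in organoids.

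Cell cycle genes made the widest gap. Of 24 G2/M genes 22 differed, all lower in liver (background 4.67%), with a median of -2.56 in liver and 0.44 in organoids. Of 25 S phase genes 21 differed, all lower in liver, with medians of -1.74 and 0.24, the latter 0.15 without replicate 1. Cenpe, a kinetochore motor, had the widest gap of the genes named by the rule: it fell from 40.4 ± 6.44 to 6.09 ± 1.78 CPM (SD, n = 3) in liver, while in organoids it was at 1.74, 1.4 and 2.54 CPM without and 2.01, 3.43 and 3.89 CPM with the extract (difference of the log2 fold changes -3.45 ± 0.64, adjusted p = 0.00541 in limma). Ect2, which places the cleavage furrow, differed by -3.34 ± 0.59. Hmmr, a hyaluronan receptor that also acts on the spindle, differed by -3.42 ± 0.95 (adjusted p = 0.0436 in limma, and 0.0969 without replicate 1 without the extract). These genes were read at far lower levels in the organoids than in CCl4 liver, and the tables were normalized separately. Of the 20 endoplasmic reticulum chaperones 9 differed, all lower in liver, with medians of -0.56 and 0.03.

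On the other side, Csad, an enzyme of taurine synthesis, rose from 29.5 ± 12.4 to 244 ± 129 CPM (SD, n = 3) in liver. In organoids it was at 17.8, 13.6 and 15.9 CPM without and 14.8, 13.9 and 14.9 CPM with the extract, a difference of 3.08 ± 0.49. Vldlr, the VLDL receptor gene, differed by 2.24 ± 0.23 and Cyp2j9, a cytochrome P450 gene with close copies, by 2.17 ± 0.53 (adjusted p = 0.0251 in limma, and 0.0649 without replicate 2 with the extract). Of 20 P450 genes tested in both, with medians of 1.09 in liver and -0.13 in organoids, 2 differed (Cyp2c37 and Cyp2c38, higher in liver, background 2.41%). Of the fibrosis anchors Col1a1 differed by -2.53 ± 0.68 (adjusted p = 0.0349 in limma) and Timp1 by -2.50 ± 0.71 (adjusted p = 0.045 in limma), both on few reads in organoids and both lost in limma when single libraries were left out (adjusted p up to 0.097 and 0.112), and Tgfb1 did not pass (-1.08 ± 0.45, adjusted p = 0.168 in limma). Of 12 collagen and matrix genes 1 differed and it was Col1a1, and of 22 NF-κB and chemokine genes 0.

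**Figure D5:**
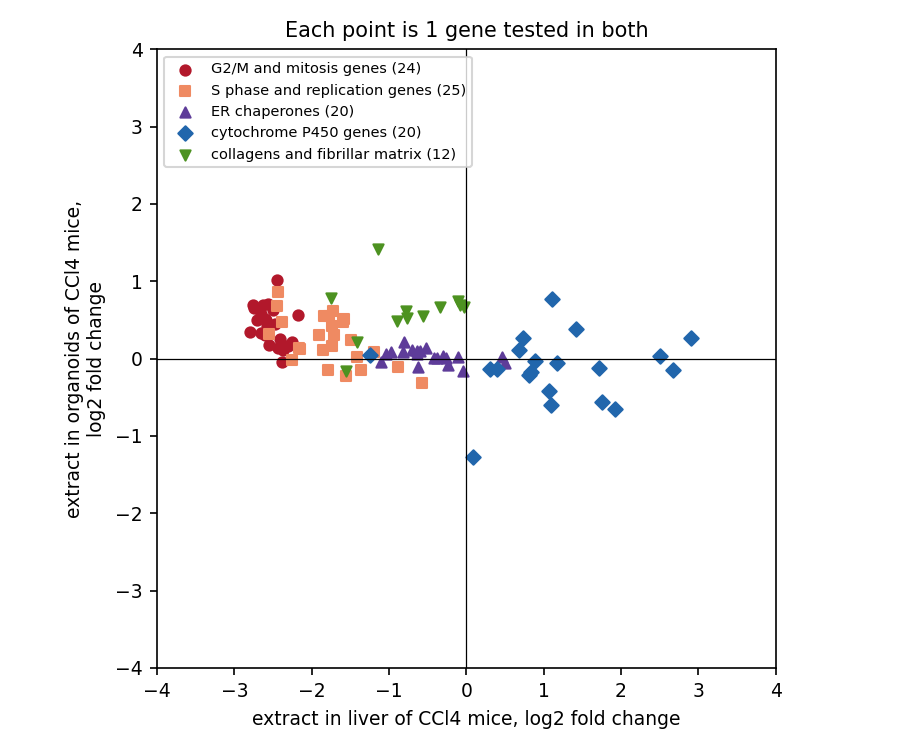
Log2 fold change with the extract in liver (horizontal axis) and in organoids of CCl4 mice (vertical axis) for genes of 5 lists tested in both, on equal axes. G2/M and S phase genes lie far left, at medians of -2.56 and -1.74, and near the line of 0 in organoids, and the P450 genes lie mostly right, with a median of 1.09 in liver and -0.13 in organoids.

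The extract was given in a second kind of organoid, grown from healthy mice and treated with TGF-β1 for 24 h before a further 24 h of extract. Here the difference from the effect in organoids of CCl4 mice passed the test for 0 of 13538 genes (0%) in limma, with a lowest adjusted p of 0.9968. An unadjusted p under 0.05 was given to 160 genes, fewer than the share of 0.05 that no difference would give. These counts do not show equal effects, since wide SEs left large differences uncalled. The difference was -3.50 ± 2.17 for Lcn2 and -2.85 ± 1.30 for Timp3, and 1.85 ± 2.13 for Fn1. The cholesterol list had a median of -0.48 there and -0.23 in organoids of CCl4 mice, and the NF-κB and chemokine list -0.55 and 0.42. Those medians are values without a test of the lists.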

How the data were processed

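Messenger RNA of organoids and liver was sequenced, and the authors deposited log2 values per gene in 3 tables, normalized separately. The submitters' processing notes name mm10 as the build. The sources used here do not give the aligner, counter, annotation or scaling method. From the values, the deposited log2 scale held a prior count of 2, and whole reads were rebuilt from them for 100% of values (tolerance 0.05), which gave the depths and the CPM values printed. The log2 values of the 9 organoid libraries were fitted with limma 3.58.1 (R 4.3.3, moderated with a trend), 1 coefficient a group, after keeping genes with the CPM of 10 reads in at least 3 libraries and at least 15 reads in the table. Fold changes are on this log2 scale, which understates those of low genes, and p-values were adjusted by Benjamini and Hochberg over all genes tested, with calls at 0.05. The effect in liver alone was fitted on its own table. Its difference from the effect in organoids was a contrast in a single fit over the libraries of both tables. That fit used 1 spread per gene for liver and organoids together. The difference from the effect after TGF-β1 was fitted in the same way over both organoid tables. Only a fit of the 6 libraries compared, scaled by library size, was tested on simulated data. The fit over 9 libraries and the fits of differences were not tested in this way.

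The libraries, gene lists (39 lists, 791 genes) and tests were chosen with earlier results of these data known. Genes were named by a rule: 5 fibrosis anchors, 10 identity markers, and among genes with a mean of 2 CPM and no overlap the 10 of smallest p and the 5 of largest fold each way. The rule also took the 3 most abundant members of a list described, and the 3 largest differences each way between liver and organoids. Coordinates and promoters came from RefSeq. Alternatives were the libraries in the fit, scaling, filter, pseudocount, variance model, replicate number and left-out libraries. Python 3.11.15, numpy 2.4.6, pandas 2.3.3 and matplotlib 3.10.9 were used. Some genes are not reported here.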

Additional observations from a re-analysis of the deposited data

Results flagged for a closer look

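The extract effect differed between liver and organoids of CCl4 mice by a test of the difference itself for 928 genes in limma. Among the genes named by the rule, the effect in liver was lower than in organoids by a log2 difference of -3.45 for Cenpe, -3.42 for Hmmr and -3.34 for Ect2, genes of cell division. It was higher in liver by 3.08 for Csad, an enzyme of taurine synthesis, 2.24 for Vldlr, a lipoprotein receptor, and 2.17 for Cyp2j9, a cytochrome P450. For the fibrosis anchors Col1a1 and Timp1 the differences were -2.53 and -2.50, on 2 to 16 reads per library for Col1a1 and 14 to 61 for Timp1 in organoids.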

How the results depend on the processing

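Changes of scaling, filter, pseudocount, variance model or block called no gene in organoids of CCl4 mice. With the 6 libraries alone and without replicate 3 without extract, a setting added after seeing the data, 1 gene was called by limma (Sorbs2, a log2 fold change of 0.98, adjusted p = 0.0371). Leaving out replicate 1 or 2 in the same way called 0, with lowest adjusted p-values of 0.255 and 0.278. The 271 genes at an unadjusted p under 0.05 became 842 with 6 libraries, 1013 without replicate 1 of the mineral oil group, which stands apart from the other oil libraries (lowest adjusted p 0.0786 in limma), and 484 with no filter. They ranged from 127 to 611 with 1 library left out (161 without replicate 1 without extract), and were 761, 2065 and 2234 with replicate 1, 2 or 3 without extract left out of the 6. The 928 differences between liver and organoids became 1732 with library size alone and ranged from 425 (without extract replicate 3) to 776 with 1 organoid library left out. Same-numbered libraries without and with extract had correlations of 0.0881, -0.0294 and 0.052, and differently numbered ones lay between -0.118 and 0.0941. With 3 libraries a group, these values cannot decide whether same-numbered libraries share a mouse or line. With the replicate block 0 genes were called, 270 had an unadjusted p under 0.05 and 817 differences were called, and the call of Timp1 was lost (adjusted p = 0.0578 in limma). The TGF-β1 difference gave 0 under every alternative run.

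With library size alone Krt19 (0.0159), Ttr (0.0422), Lgr5 (0.00718), Lamb3 (0.00548) and Srebf2 (0.0302) changed sign, and Ttr also with voom (0.000544). Left-out libraries moved Krt19 between -0.0503 and 0.0138, Krt7 between -0.0212 and 0.2, Epcam between -0.105 and 0.0239, Ttr between -0.218 and 0.118, Lgr5 between -0.381 and 0.271, Plat between -0.134 and 0.916, Jag2 between -0.00753 and 0.185, Notch1 between -0.00335 and 0.104, Lgr4 between -0.211 and 0.0221, Rnf43 between -0.00331 and 0.205, Srebf2 between -0.0747 and 0.0361 and Fth1 between -0.149 and 0.275. Of 73 genes recomputed these 13 changed sign in 23 of 1093 values. The differences of Cenpe, Ect2, Csad and Vldlr kept their call in every setting run, but no liver library was left out in any of them. The differences of Hmmr, Cyp2j9, Col1a1 and Timp1 lost their call in some settings, with adjusted p-values in limma of up to 0.11, 0.0649, 0.184 and 0.112. The cause was not tested. Of 570 list medians recomputed, 547 moved by less than the spread between libraries. That spread includes replicate 1 without extract, and a change of sign was not counted as a move. The duct marker median, for example, went from 0.0944 to -0.026 without that library. Genes at a few reads, Col1a1 among them, are limited by depth.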
